A study of Rattus norvegicus with 36 samples.

Results

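The oxidative phosphorylation system was described through the probes whose transcript maps to a gene symbol beginning with Nduf, Uqcr, Sdh, Atp5, Cox4, Cox5, Cox6, Cox7 or Cox8. This rule gave 85 genes of the 15154 with a probe, 17 of them with several probes. The array holds 30367 probes that are not controls, and 17998 of these carry a gene symbol. RefSeq lists 234 rat symbols with these prefixes, of which 122 are protein coding and 111 are pseudogenes, and 84 of the protein-coding genes had a probe. The 85 genes hold 7 core and 24 accessory subunits of complex I, 4 subunits of complex II, 8 of complex III, 11 of complex IV and 14 of complex V, with 8 assembly factors, 2 muscle-type isoforms, 3 isoforms of other tissues, Cox7a2l and Atp5if1, a pseudogene (Cox6c-ps1) and a gene copy (Ndufa10l1). RNA came from the thyroid glands of 36 adult male Sprague Dawley rats, each measured on 1 array. There were 8 irradiated groups of 4 rats, injected in a tail vein with 9, 88, 170 and 260 kBq in the lower range, and 340, 760, 1300 and 4700 kBq in the upper range, of radioiodine (131I), a beta emitter that the thyroid takes up, and 4 control rats received 0 kBq. Every thyroid was taken 24 h after the injection. The irradiated groups were injected in order of rising activity and the controls were mock-treated last, so that the group and its place in the order of injection cannot be told apart.

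The subunits build the respiratory chain of the inner mitochondrial membrane. Complex I takes electrons from NADH and complex II takes them from succinate, complex III passes them to cytochrome c, complex IV (cytochrome c oxidase) hands them to oxygen, and complex V (ATP synthase) uses the proton gradient that the chain builds to make ATP. Some subunits of complex IV exist in isoforms. Cox6a2, Cox7a1 and Cox8b are called muscle-type after heart and skeletal muscle, and Cox6a1, Cox7a2 and Cox8a are called ubiquitous. Whether other tissue in the samples, such as brown fat, also made the muscle-type forms was not tested. The thyroid lies against the trachea and the neck muscles. No probe matched Cox7a1, and none matched the 13 subunits encoded by the mitochondrial genome, so the muscle-type isoforms were described through Cox6a2 and Cox8b. Levels are given as log2 of the processed signal minus the 75th percentile of the array, so that a level of 0 equals that percentile, and levels of different probes are not comparable with each other. All probes of the members but 3 (of Ndufaf4, Cox8c and Cox6c-ps1) were well above background, the call of the scanner's software, on all 36 arrays.

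The arrays stood apart by tissue content, which was spread over all groups but not evenly. The mean level of 12 thyroid follicular cell genes, among them Tg and Pax8, lay between -5.03 and -0.46 in 18 rats and between 1.77 and 3.38 in the other 18, which are called follicle-poor and follicle-rich here. All 12 genes had a lower median in the follicle-poor rats. These genes set the split, so their medians are no separate support for it. The follicle-poor rats numbered 1 of 4 controls, 3 of 4 at 9 kBq, 2 of 4 at 88, 170, 260, 760 and 1300 kBq, 3 of 4 at 340 kBq and 1 of 4 at 4700 kBq. The mean of 11 fast muscle genes, such as Myh4, Acta1 and Ckm, lay between -3.58 and 3.45 in 4 follicle-rich rats (9 kBq rat 2, 88 kBq rat 3, 760 kBq rat 3 and 4700 kBq rat 2) and between 5.75 and 7.55 in the other 32. All 11 fast muscle genes had a higher median in the follicle-poor rats. Of the fast muscle genes 10 of 11, and of the follicular genes 6 of 12, Tg among them, were well above background on all 36 arrays. Other tissues differed as well: all 6 C cell and all 3 parathyroid genes had a lower median in the follicle-poor rats, all 5 squamous epithelium and all 7 cartilage genes a higher one. Of 5 brown fat genes 3 had a higher median there (Cpt1b by 1.83, Ppara by 1.29 and Elovl3 by 0.71). The others had a lower one (Ucp1 with a difference of -8.44 and Cidea of -1.87). Elovl3 was well above background on only 7 of 36 arrays, so its difference lies near the floor. In such bulk tissue, fewer cells of a type and less RNA per cell cannot be told apart.

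The promoters of both muscle-type isoforms and of a ubiquitous partner are shown because the isoforms differed most between rats. Each covers 250 bases before to 50 bases after the gene's start, in the RefSeq table of build GRCr8, and is written 5′ to 3′ on the strand of the gene. In the first pair the capitals mark each E-box (CANNTG), the letters bound by the myogenic basic helix-loop-helix factors. Cox6a2 lies at chr1:192219667-192219966 on the minus strand and Cox8b at chr1:205408224-205408523 on the minus strand.
Cox6a2: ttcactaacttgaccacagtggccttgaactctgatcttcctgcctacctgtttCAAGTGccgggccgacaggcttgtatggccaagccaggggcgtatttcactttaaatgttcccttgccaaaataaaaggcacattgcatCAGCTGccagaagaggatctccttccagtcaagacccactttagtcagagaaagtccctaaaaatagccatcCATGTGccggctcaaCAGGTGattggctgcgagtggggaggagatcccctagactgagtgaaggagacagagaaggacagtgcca
Cox8b: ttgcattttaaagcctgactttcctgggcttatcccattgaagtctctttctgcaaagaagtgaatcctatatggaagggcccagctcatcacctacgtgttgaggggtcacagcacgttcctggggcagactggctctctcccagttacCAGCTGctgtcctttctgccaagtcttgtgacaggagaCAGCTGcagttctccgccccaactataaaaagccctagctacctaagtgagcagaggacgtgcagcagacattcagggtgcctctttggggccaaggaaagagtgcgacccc
The promoter of Cox8a lies at chr1:213833574-213833873 on the minus strand, and its capitals mark CCGGAAG on either strand, the core letters bound by GABP (also named NRF-2), a factor known to drive nuclear genes of the respiratory chain.
Cox8a: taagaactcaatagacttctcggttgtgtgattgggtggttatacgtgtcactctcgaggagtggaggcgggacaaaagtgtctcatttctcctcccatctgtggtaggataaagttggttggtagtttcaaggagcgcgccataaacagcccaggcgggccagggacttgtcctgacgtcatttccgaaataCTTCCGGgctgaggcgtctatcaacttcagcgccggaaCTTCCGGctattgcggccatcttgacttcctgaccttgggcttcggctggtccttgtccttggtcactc
The Cox6a2 window held 4 E-boxes and the Cox8b window 2, against 1 in Cox8a, 3 in the ubiquitous Cox7a2 and a median of 1 over all 33469 promoters of the table. CCGGAAG occurred 2 times in Cox8a, 1 time in the window of Cox7a2, and in neither muscle-type promoter. The table held promoters of 75 of the 85 genes, and Cox6a1 was not among them. An E-box was found in 47 of these 75 (62.7%) and in 72.1% of all promoters. CCGGAAG was found in 24 of 75 (32%) against 8.75% of all promoters, GCGCATG, the core letters of NRF1, in 14 (18.7%) against 3.77%, and CCATNTT, the core of YY1, in 32 (42.7%) against 18.3%. Both strands were searched, no motif contains another, and the median GC content was 57% in the 75 promoters and 51.7% in all.

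Cox6a2, the muscle-type form of a subunit that adjusts cytochrome c oxidase to the supply of ADP and ATP, varied more between rats of a group than any other member, with an SD within groups of 2.1 on the log2 scale. In the control rats 1 to 4 its level was 6.42, 6.54, 7.02 and 5.78. In the rats given 9 kBq it was 7.72, 2.94, 6.54 and 7.06, and in those given 88 kBq it was 7.12, 6.57, 1.04 and 6.41. Rat 2 at 9 kBq and rat 3 at 88 kBq, both low in fast muscle genes, lay below every control, while the other 6 rats overlapped or exceeded them. The levels were 6.87, 6.6, 7.68 and 6.31 at 170 kBq, 5.48, 5.29, 7.27 and 7.67 at 260 kBq, and 7.72, 7.76, 7.04 and 6.71 at 340 kBq. At 260 kBq the values of the follicle-rich rats 1 and 2 were below all controls and those of the follicle-poor rats 3 and 4 above all controls. The levels were 7.01, 7.01, -1.92 and 6.25 at 760 kBq, 8.06, 7.38, 6.01 and 6.18 at 1300 kBq, and 6.6, 2.7, 7.61 and 6.27 at 4700 kBq. The lowest value of all, in rat 3 at 760 kBq, was 9.98 below the highest, in rat 1 at 1300 kBq. Low again at 4700 kBq was rat 2, the remaining rat that was low in fast muscle genes.

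Cox8b, the muscle-type form of the small subunit VIII, had an SD within groups of 1.68 and the same low rats. Its level was 5.14, 5.54, 6.8 and 5 in the controls, 7.09, 2.05, 5.74 and 6.34 at 9 kBq, and 6.15, 5.61, 1.29 and 5.31 at 88 kBq. It was 5.79, 5.47, 6.97 and 5.44 at 170 kBq, 4.26, 3.65, 6.53 and 7.14 at 260 kBq, and 6.82, 7.15, 6.2 and 5.85 at 340 kBq. The 4 rats at 340 kBq all lay above 3 of the 4 controls. Levels of 6.32, 6.4, 1.68 and 4.9 were measured at 760 kBq, 7.03, 6.63, 5.17 and 4.77 at 1300 kBq, and 5.66, 1.57, 6.64 and 5.11 at 4700 kBq. The 4 rats low in fast muscle genes lay between 1.29 and 2.05, and the lowest of the other 32 was at 3.65.

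**Figure D1:**
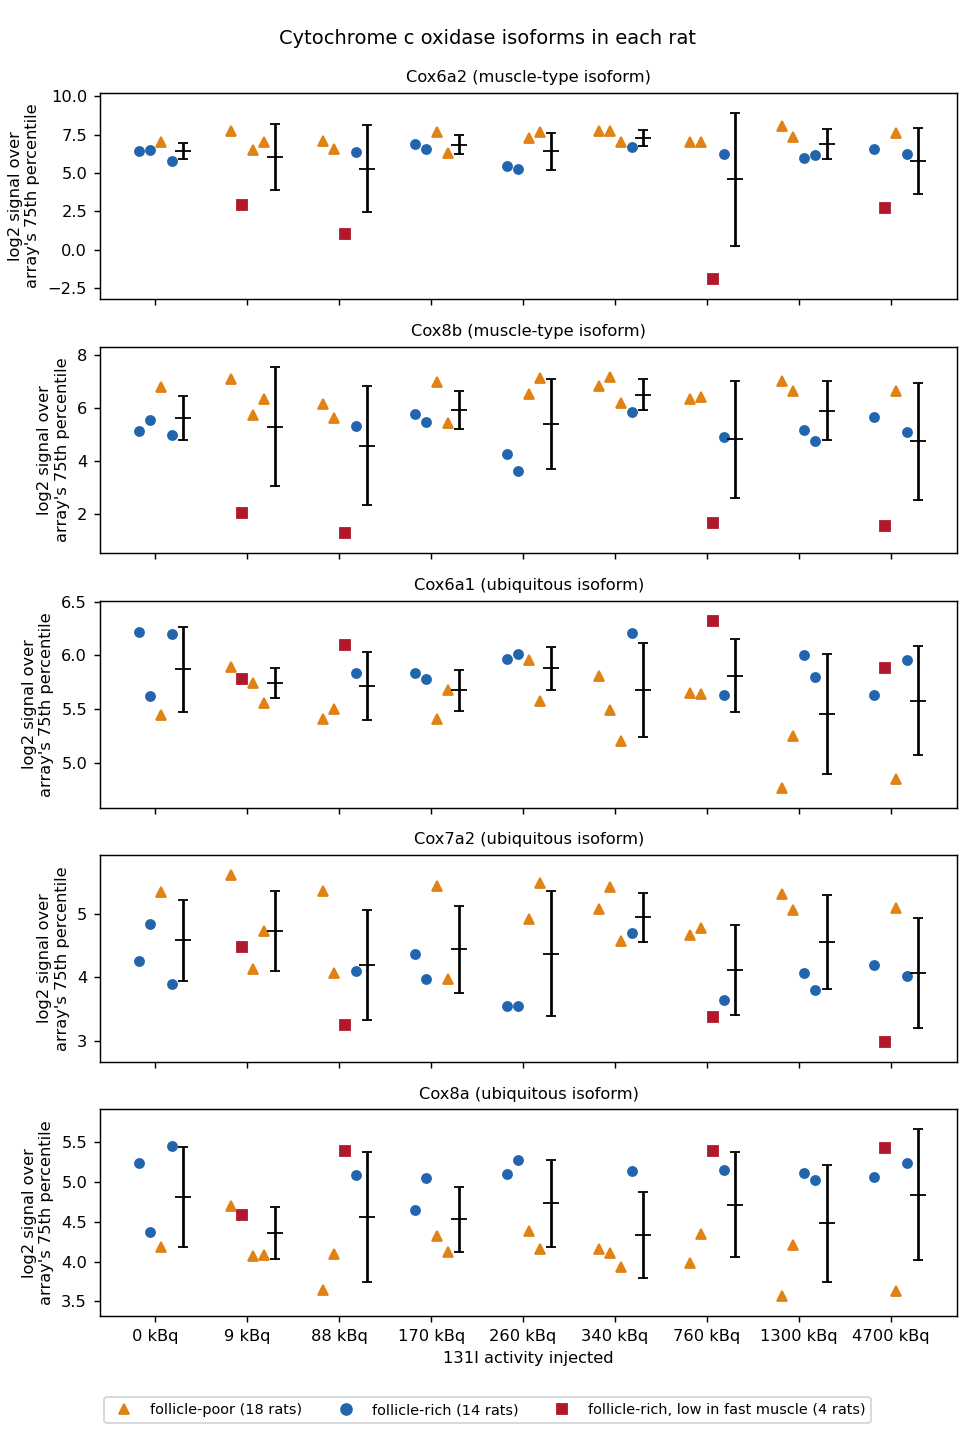
The log2 level of 5 cytochrome c oxidase isoforms (vertical axis, relative to the 75th percentile of the array) in each of 36 rats, by injected activity (horizontal axis). Symbols separate follicle-poor rats, follicle-rich rats and the 4 follicle-rich rats low in fast muscle genes, and the black bars give the mean and SD of each group of 4. The 4 squares are the lowest values of Cox6a2 and Cox8b, and among the highest of Cox8a at 88, 760 and 4700 kBq.

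Neither muscle-type isoform passed the threshold in any of the 8 comparisons with the controls (limma; the threshold asked for a fold change of 1.5 or more together with a Benjamini-Hochberg adjusted p below 0.01), where 0% of all probes passed it. The log2 fold change of Cox6a2 was -0.37 at 9 kBq, -1.15 at 88 kBq, 0.42 at 170 kBq, -0.01 at 260 kBq, 0.87 at 340 kBq, -1.85 at 760 kBq, 0.47 at 1300 kBq and -0.65 at 4700 kBq, each with a standard error of 1.43. For Cox8b it was -0.32, -1.03, 0.3, -0.23, 0.88, -0.8, 0.28 and -0.88 in the same order, each with a standard error of 1.14. The standard errors exceeded every difference except that of Cox6a2 at 760 kBq. Without the rat low in fast muscle genes in each group, the fold changes of Cox6a2 turned to 0.67 at 9 kBq, 0.26 at 88 kBq, 0.31 at 760 kBq and 0.38 at 4700 kBq, and those of Cox8b to 0.77, 0.07, 0.25 and 0.18. In two-sided exact permutation tests of 4 against 4 rats, which cannot give a p under 0.0286, 0 of 40 tests of these isoforms and their 3 ubiquitous partners were under 0.05. The smallest exact p was 0.0571, for Cox6a2 at 340 kBq, and every p adjusted over the 40 tests was 1.

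Across rats, the levels of both isoforms were correlated with the fast muscle genes. The 4 rats low in fast muscle form a cluster of their own, so the relations, 4 in all, were computed over the other 32 rats and their p-values were adjusted over the 4. Cox6a2 and the fast muscle mean had a Pearson's r of 0.949 and a Spearman's rho of 0.961, and Cox8b and the fast muscle mean an r of 0.892 and a rho of 0.898 (permutation p = 1e-05, the smallest that 100000 permutations can give, and adjusted p = 2e-05 in each case). With the 2 rats farthest from the median of the fast muscle mean left out, r was 0.942 and 0.882, and over deviations from the group means it was 0.946 and 0.887. Within scan day 1 the r of Cox6a2 was 0.946 (14 rats) and within scan day 2 it was 0.951 (18 rats), and for Cox8b they were 0.881 and 0.918. The pairs of points share an array, its scaling and its tissue piece.

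With the slow muscle mean (8 genes, among them Myh7 and Tnni1) the 32 rats gave no such relation. This list does not have 1 direction between the clusters: 4 of its 8 genes had a higher and 4 a lower median in the follicle-poor rats, from -1.27 (Myh7) to 6.69 (Actc1). Cox6a2 had an r of -0.0263 (permutation p = 0.886) and a rho of 0.183 (p = 0.314), and Cox8b an r of 0.0668 (p = 0.716) and a rho of 0.186 (p = 0.306). The adjusted p was 0.886 for both r and 0.314 for both rho. Without the 2 rats farthest from the median of the slow muscle mean r was 0.344 and 0.355 (adjusted p = 0.0638 for both), and over deviations from the group means -0.139 and -0.0562. The relation differed between the tissue clusters, which were set apart after the values were seen and between which the difference was not tested. In 14 follicle-rich rats, r with the slow muscle mean was 0.931 for Cox6a2 and 0.915 for Cox8b (permutation adjusted p = 1.33e-05 for both). In 18 follicle-poor rats it was -0.348 and -0.158 (permutation adjusted p = 0.211 and 0.536), while r with the fast muscle mean stayed at 0.937 and 0.895.

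**Figure D2:**
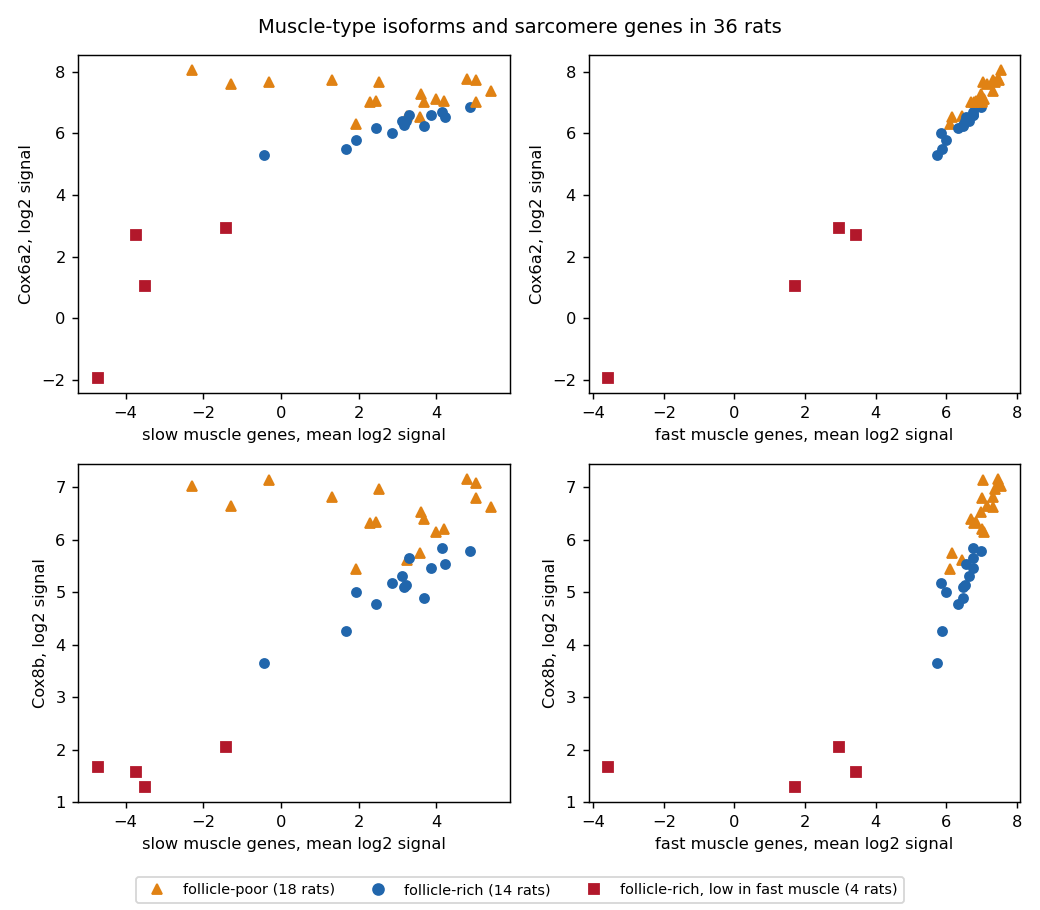
The log2 levels of Cox6a2 and Cox8b (vertical axes) against the mean log2 levels of 8 slow muscle genes and 11 fast muscle genes (horizontal axes) in 36 rats, with symbols for tissue content. With fast muscle, r over the 32 rats without the 4 squares was 0.949 for Cox6a2 and 0.892 for Cox8b. With slow muscle, the circles rise together and the triangles do not.

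Of the ubiquitous partners of these isoforms, Cox8a and Cox6a1 had a lower median in the follicle-poor rats, while Cox7a2 had a higher one, by 1.06, as Cox6a2 and Cox8b had. Cox8a, the ubiquitous subunit VIII, was at 5.24, 4.37, 4.18 and 5.45 in the controls, 4.7, 4.59, 4.07 and 4.09 at 9 kBq, and 3.65, 4.1, 5.39 and 5.09 at 88 kBq. It was at 4.65, 5.05, 4.32 and 4.12 at 170 kBq, 5.1, 5.28, 4.39 and 4.16 at 260 kBq, and 4.16, 4.11, 3.93 and 5.14 at 340 kBq. The higher values of a group belonged to its follicle-rich rats in each of these groups except 9 kBq. It was at 3.98, 4.35, 5.39 and 5.15 at 760 kBq, 3.57, 4.21, 5.12 and 5.03 at 1300 kBq, and 5.07, 5.43, 3.63 and 5.24 at 4700 kBq. In 3 of the 4 rats that were lowest for Cox8b, Cox8a was at 5.39, 5.39 and 5.43, close to its highest value of 5.45. Cox6a1, the ubiquitous partner of Cox6a2, ranged over 1.54 between 4.77 and 6.32, with group means from 5.46 ± 0.554 (SD, n = 4) at 1300 kBq to 5.88 ± 0.201 at 260 kBq. Cox7a2, the ubiquitous partner of Cox7a1, lay between 2.99 and 5.6, with group means from 4.07 ± 0.854 at 4700 kBq to 4.94 ± 0.383 at 340 kBq. The group means of Cox8a ran from 4.34 ± 0.544 at 340 kBq to 4.84 ± 0.824 at 4700 kBq. For each of these 3 genes the group means lay within 1 log2 unit of each other.

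Complex I core subunits, which carry the flavin and iron-sulphur centres, had a lower median in the follicle-rich than in the follicle-poor rats, 7 of 7. Since these clusters come from the data and not from the study, their levels are given as a description, with no test. Ndufs1, the largest iron-sulphur subunit, was at 3.24, 3.43, 4.76 and 3.02 in the controls, where rat 3 is the follicle-poor one. At 340 kBq, where rat 4 is the follicle-rich one, it was at 4.58, 4.97, 4.22 and 3.77, and at 4700 kBq, where rat 3 is follicle-poor, at 3.39, 2.34, 4.47 and 3.32. In each of these groups the follicle-poor rats lay above the follicle-rich rats. Over all rats Ndufs1 ran from 1.95 to 3.77 with a median of 3.01 in the follicle-rich and from 3.33 to 5.29 with a median of 4.52 in the follicle-poor, a difference of 1.51. The difference was 1.29 for Ndufv1, which binds NADH, 1.24 for Ndufv2, 1.27 for Ndufs7, 0.97 for Ndufs3 and 0.945 for Ndufs8. The SD within groups ran from 0.697 (Ndufs8) to 0.947 (Ndufs7) in the core of complex I.

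Of the 24 accessory subunits of complex I, which surround the core and take part in its assembly and stability, 23 had a higher median in the follicle-poor rats, by 0.0363 (Ndufa1) to 1.24 (Ndufa9). Ndufab1, the mitochondrial acyl carrier protein, varied most within groups (SD 0.903) and Ndufa1 least (SD 0.35). Ndufa7, whose probe had a low signal here, went the other way. It ran from -2.86 to -1.72 with a median of -2.39 in the follicle-poor rats and from -1.98 to -0.852 with a median of -1.37 in the follicle-rich rats, a difference of -1.02. For Ndufv3, a small subunit of the NADH-binding module, 2 probes were higher in the follicle-poor rats by 0.722 and 0.896 and the other was lower by 0.363, so the gene has no single direction. Ndufv3 is counted among the 23 by its probe with the highest mean, the one at 0.722. Of 17 genes with several probes, the assembly factor Ndufaf7 was the other with probes of opposite sign, at 0.766 and -0.112.

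Complex II, which also works in the tricarboxylic acid cycle, had all 4 subunits higher in the follicle-poor rats. Sdha, its flavoprotein, was higher by 0.85 and had the smallest SD within groups (0.556). Sdhb, the iron-sulphur subunit, and the membrane anchor Sdhd were higher by 1.3 each, and the other anchor, Sdhc, by 1.08. The largest SD was that of Sdhd, at 0.81. The medians of Sdhb were 4.52 (3.09 to 5.09) in the follicle-poor and 3.21 (2.24 to 4.04) in the follicle-rich rats, so the ranges overlapped. They overlapped for each of the other genes too. The share over all probes is not given here, so the overlap is not read as a trait of these genes.

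In complex III all 8 measured subunits had a higher median in the follicle-poor rats. Uqcrfs1, the Rieske iron-sulphur protein, differed by 1.34 and varied most (SD 0.903), the core proteins Uqcrc1 and Uqcrc2 differed by 1.25 and 1.27, and Uqcrb, Uqcr10, Uqcr11 and Uqcrh by 0.783 to 1.07. The SD within groups was smallest for Uqcrh, the hinge protein, at 0.6. Uqcrq, a small subunit with a dim probe here (-4.18 to -1.6), differed by 0.117.

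In complex IV, 9 of 11 genes had a higher median in the follicle-poor rats, and Cox6a1 and Cox8a a lower one, by 0.389 and 1.01. Cox4i1, a subunit that binds ATP, differed by 0.851, Cox5a by 1.16 and Cox5b by 0.762. Cox6b1, Cox6c, Cox7a2, Cox7b and Ndufa4, which was named as a subunit of complex I and belongs to complex IV, differed by 0.723 to 1.06. Cox7c had a difference of 1.34 and the largest SD within groups of the complex (1.43), over a range of 5.61 at low signal (-5.17 to 0.438). The smallest SD was that of Cox6a1, at 0.368. Since 111 of the 234 symbols with these prefixes are pseudogenes, the signal of a gene and that of a near-identical copy cannot be told apart by a probe that matches both.

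All 14 genes of complex V were higher in the follicle-poor rats. Atp5f1b, the catalytic beta subunit, differed by 1.37 (median 4.59 against 3.22), Atp5f1a, the alpha subunit, by 0.983, and Atp5f1c, of the central stalk, by 1.21. Of the c-ring genes measured, Atp5mc1 differed by 1.32 and Atp5mc2 by 0.727, and Atp5mc1 had the largest SD within groups of the complex (0.881). Atp5pd, of the peripheral stalk, had the smallest (0.501). Atp5if1, the inhibitor that binds the catalytic part of the enzyme, went the other way: its median was 4.02 (2.92 to 4.33) in the follicle-poor and 4.42 (4.01 to 4.9) in the follicle-rich rats. Cox7a2l, a factor that holds complexes III and IV together in supercomplexes, had the same median of 4.35 in both and the smallest SD within groups of the 85 genes, 0.208. By the probe with the highest mean of each gene, the 8 assembly factors were all higher in the follicle-poor rats, by 0.388 (Sdhaf2) to 0.767 (Ndufaf8). The other probe of Ndufaf7 was lower there by 0.112, as given above.

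**Figure D3:**
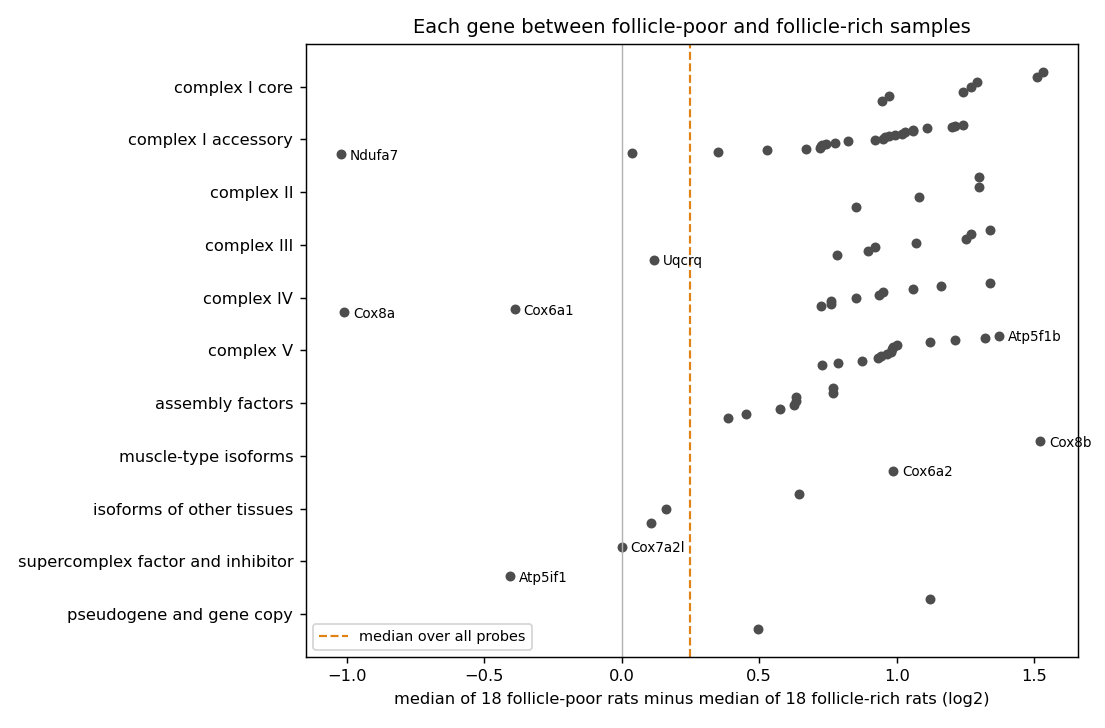
The median level in 18 follicle-poor rats minus that in 18 follicle-rich rats (horizontal axis, log2) for each of the 85 genes, 1 point a gene, by complex or kind (vertical axis). The dashed line is the median over all probes, 0.248. Of the 85 genes 80 lie to the right of 0, and Ndufa7, Cox8a, Atp5if1, Cox6a1 and Cox7a2l (-0.000678) lie to its left.

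By the probe with the highest mean of each gene, 80 of the 85 genes had a higher median in the follicle-poor rats. The median difference was 0.943, where 64.6% of all probes were higher there with a median difference of 0.248. The direction of most genes held under each scaling, but its size did not. The count was 81 and the median difference 1.02 with median centring, where 67.3% of all probes were higher with a median of 0.307. With a normexp background correction they were 79 and 0.925, against 73.3% and 0.285, and Ndufa1 turned. With quantile normalization and in the authors' matrix they were 75 and 0.429, against 55% and 0.0296, and 54.8% and 0.0324. In these last settings Cox8c, Ndufa1, Ndufa10l1, Ndufb4 and Ndufs5 turned as well. Cox6a1, Cox8a, Ndufa7 and Atp5if1 were lower in the follicle-poor rats under all 5 scalings. The fast muscle genes, as given above, were higher in the same rats, and their part in the difference was not tested.

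Per rat, the complexes were lowest and highest in the same few animals. The median over the genes of a complex, each taken as its difference from its own mean over 36 rats, was lowest in rat 2 at 9 kBq for all 5 complexes and the assembly factors: -1.62 for the core and -1.24 for the accessory subunits of complex I, -1.39 for complex II, -1.3 for complex III, -1.18 for complex IV, -1.14 for complex V and -0.734 for the assembly factors. The highest were 1.27, 1.38, 1.25, 0.978 and 1.01 for the core of complex I and complexes II to V, all in rat 3 at 170 kBq, and 1.1 for the accessory subunits and for the assembly factors, both in rat 1 at 1300 kBq. Over all 85 genes the median lay between -0.378 and 1.03 in the follicle-poor rats, between -0.733 and 0.0504 in 14 follicle-rich rats, and between -1.18 and -0.824 in the 4 rats low in fast muscle genes. The mean of this median was higher in the follicle-poor than in the follicle-rich rats of all 9 groups, by 0.424 (170 kBq) to 1.45 (9 kBq). In 8 of the 9 groups each follicle-poor rat lay above each follicle-rich rat, the exception being 170 kBq.

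**Figure D4:**
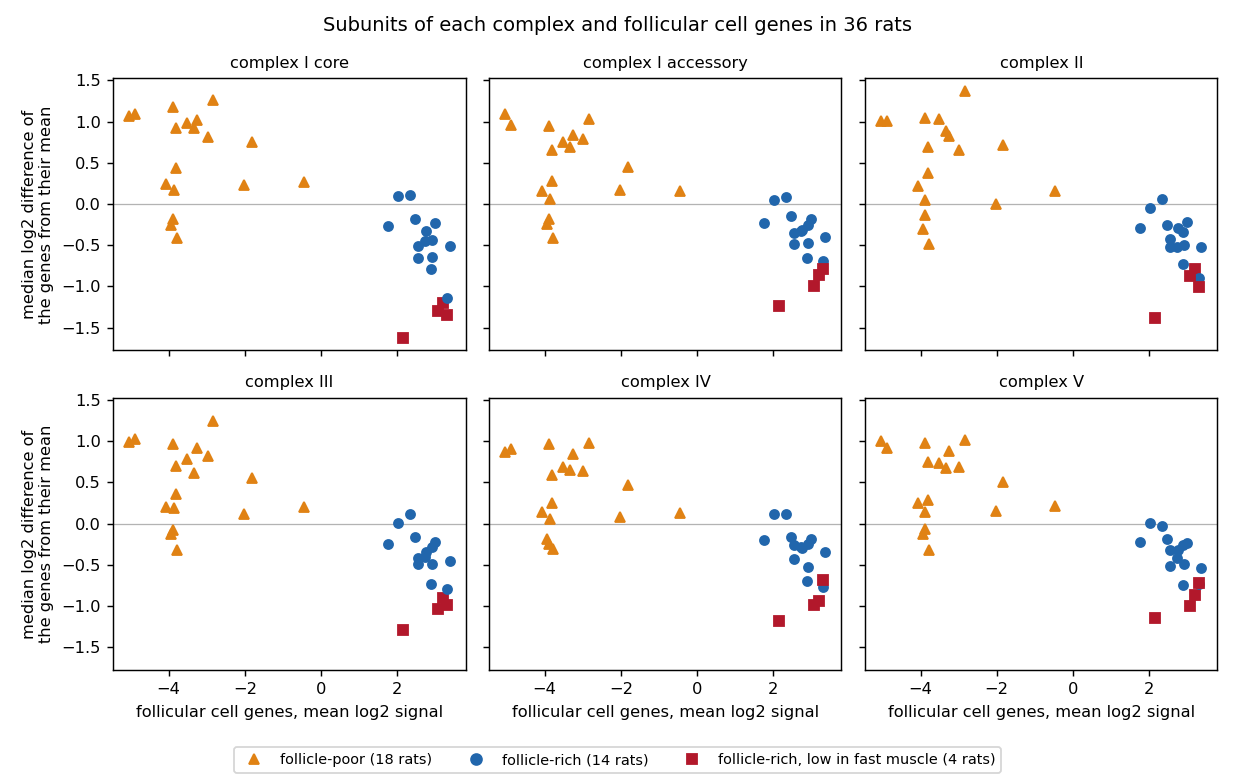
The median log2 difference of the genes of each complex from their own means (vertical axis) against the mean log2 level of 12 thyroid follicular cell genes (horizontal axis), 1 point a rat, 36 rats. The clusters overlap on the vertical axis, and the 4 squares are among the lowest points, between -1.62 and -0.681 over the 6 panels.

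Since the rats fall into clusters, the relation of the median of the 85 genes to the follicular mean is given within them, as a description. Over the 18 follicle-poor rats Pearson's r was -0.152 and Spearman's rho -0.00103, and r was -0.0756 without the 2 rats farthest from the median of the follicular mean. Over the 18 follicle-rich rats r was -0.41, rho -0.494, and r without 2 rats -0.234. Over the 14 follicle-rich rats that were not low in fast muscle genes they were -0.645, -0.582 and -0.607. The values of a rat share an array and its scaling.

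Between the irradiated groups and the controls, 0 of the members' probes passed the threshold in each of the 8 comparisons, and 0% of all 30367 probes did. At the same cut-offs the study, which used other software, reported regulated transcripts in every irradiated group. Why its calls differ from those of this fit was not tested. At an unadjusted p-value under 0.05 in limma, which 3.22% of all probes reached at 9 kBq, 3.36% at 88 kBq, 2.36% at 170 kBq, 1.12% at 260 kBq, 13.7% at 340 kBq, 1.64% at 760 kBq, 4.18% at 1300 kBq and 1.66% at 4700 kBq, the member probes numbered 0, 1, 1, 1, 2, 0, 2 and 1. With the 8 irradiated groups pooled against the controls, 0 probes passed the threshold (0% of all) and 1 member probe, of Cox8c, had an unadjusted p under 0.05 (3.27% of all probes). A moderated F test of differences among the 9 groups called 4 of all probes (0.0132%) and 0 members. At an unadjusted p under 0.05 it gave 2.69% of all probes and 1 member, again Cox8c (adjusted p = 0.989).

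The median log2 fold change of the 85 genes was -0.06 at 9 kBq, -0.25 at 88 kBq, 0.17 at 170 kBq, 0.02 at 260 kBq, 0.53 at 340 kBq, -0.16 at 760 kBq, 0.29 at 1300 kBq and -0.11 at 4700 kBq. Over all probes the median was 0.07, 0.09, 0.12, 0.03, 0.31, 0.08, 0.22 and 0.09 in the same order. The values did not run in the order of activity. Of the groups with 3 follicle-poor rats of 4, against 1 of 4 in the controls, 340 kBq had the highest median and 9 kBq a median of -0.06. The groups that hold a rat low in fast muscle genes, 9, 88, 760 and 4700 kBq, were the 4 with a median below 0. Without that rat, rat 2 in both, the median was 0.31 at 9 kBq and 0.15 at 4700 kBq. At 88 kBq it stayed below 0 with any 1 rat of the group or the controls left out (-0.39 to -0.0048). At 760 kBq it ran from -0.3 to 0.069, the highest without control rat 3. Whether the rats low in fast muscle genes set the sign was not tested. With the slow muscle and follicular means as covariates, the median at 340 kBq was 0.02 (all probes 0.16) and that at 9 kBq -0.55 (all probes 0.03). With the fast muscle and follicular means, they were 0.03 (all probes 0.16) and -0.49 (all probes 0.04).

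Per rat, the median of the 85 genes about their means was -0.198, -0.226, 0.68 and -0.436 in control rats 1 to 4, and 0.641, 0.95, 0.295 and 0.039 in the rats given 340 kBq. The single follicle-poor control, rat 3, lay above 3 of the 4 rats at 340 kBq. It was 0.921, -1.179, -0.197 and 0.079 at 9 kBq, 0.151, -0.161, -0.845 and -0.366 at 88 kBq, and 0.05, -0.251, 1.025 and -0.378 at 170 kBq. It was -0.693, -0.733, 0.468 and 0.838 at 260 kBq, 0.17, 0.155, -0.824 and -0.462 at 760 kBq, 1.025, 0.727, -0.339 and -0.478 at 1300 kBq, and -0.164, -0.964, 0.748 and -0.299 at 4700 kBq. Every group overlapped the controls.

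**Figure D5:**
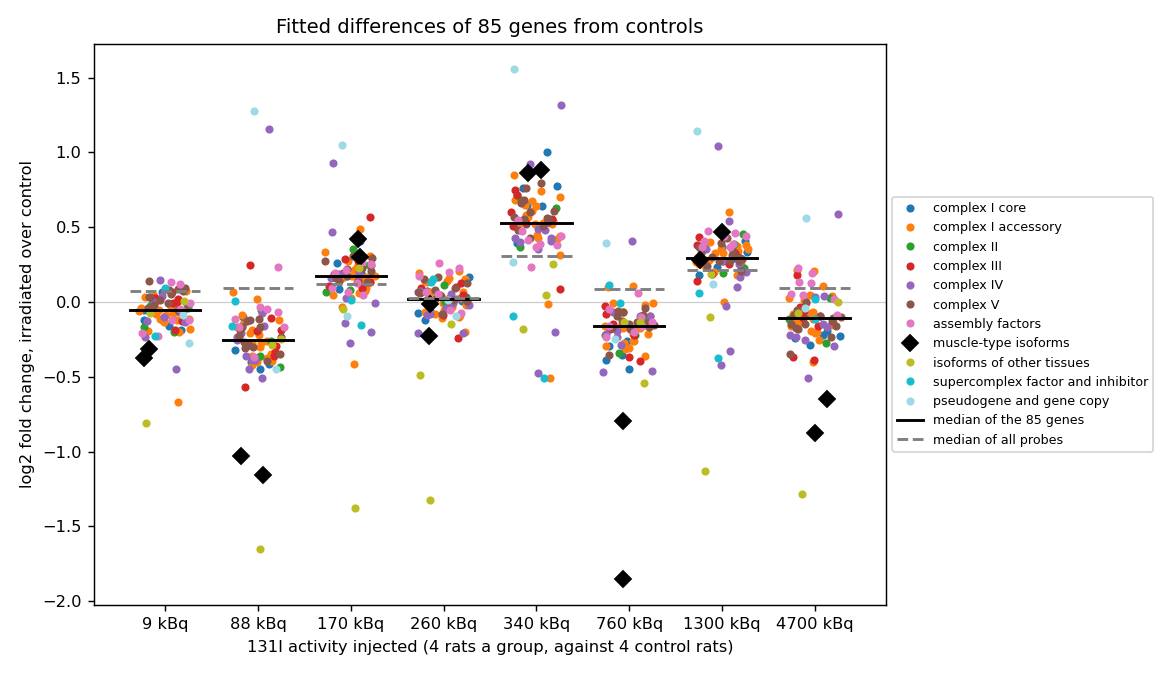
The log2 fold change of each of the 85 genes against the 4 control rats (vertical axis) in the 8 irradiated groups (horizontal axis), coloured by complex or kind, with black diamonds for Cox6a2 and Cox8b. Solid lines give the median of the 85 genes and dashed lines that of all probes. The solid line is highest at 340 kBq (0.53) and lowest at 88 kBq (-0.25), and no point passed the threshold.

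None of the genes with the smallest unadjusted p-value in each direction, each gene taken by its probe with the highest mean, passed the threshold. On the higher side they were Cox7a2l at 9 kBq (log2 fold change 0.09), Cox6c-ps1 at 88 kBq (1.28), Uqcrq at 170 kBq (0.57), Sdhaf2 at 260 kBq (0.26) and at 1300 kBq (0.48), Ndufb2 at 340 kBq (0.85), Cox7c at 760 kBq (0.41) and Ndufaf4 at 4700 kBq (0.23). Among these, Ndufb2, an accessory subunit of complex I, came closest at an adjusted p of 0.422 (limma, standard error 0.454), with 3 of 4 rats above all controls. On the lower side they were Cox8c in 6 of the groups, Atp5if1 at 340 kBq (-0.51) with 3 of 4 rats below all controls, and Cox6a2 at 760 kBq. Outside Cox8c, an unadjusted p under 0.05 was reached by a second probe of Ndufaf7 (A_64_P028551), with a log2 fold change of 0.74 at 340 kBq (4 of 4 rats above all controls) and 0.64 at 1300 kBq and adjusted p-values of 0.256 and 0.84, and by a second probe of Cox6c-ps1 (A_44_P285575) at 340 kBq (1.54, adjusted p = 0.289).

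Cox8c, the testis form of subunit VIII, was the dimmest member, well above background on 5 of 36 arrays, 2 of them controls. Its measured level in the controls was -6.22, -8.54, -6.78 and -7.34. It was -8.76, -8.84, -9.15 and -8.72 at 88 kBq, below all controls, and well above background in none of these 4 rats. In the irradiated rats, the dim values were replaced by the lowest signal called well above background. The mean of Cox8c was then 1.87-fold below the measured control mean at 88 kBq and 1.41-fold below it at 170 kBq. It was 1.49-fold below at 260 kBq, 1.32-fold at 1300 kBq and 1.21-fold at 4700 kBq. The control mean includes the measured values of the 2 controls that were not well above background, so these ratios are not lower bounds of a decrease. The adjusted p in limma was 1, 0.996, 1, 0.84 and 1 in these groups. At 9, 340 and 760 kBq 1 of 4 rats was well above background, and the measured means were -8.03, -7.40 and -7.76 against -7.22 in the controls. The ratio with replaced dim values was 1.56 at 9 kBq, 0.861 (not lower) at 340 kBq and 1 at 760 kBq. At 88, 170, 260 and 4700 kBq Cox8c was the only member probe at an unadjusted p under 0.05 in limma. With the normexp background correction 0 member probes were under it in these groups (2.62%, 1.8%, 0.843% and 1.06% of all probes). With the filter on dim probes it was also 0 (3.23%, 2.15%, 1.01% and 1.53% of the probes kept). Cox4i2, the isoform of lung that responds to oxygen, and Cox6b2, the testis form of subunit VIb, were above background on all arrays, with SDs within groups of 0.32 and 0.468. Against the controls, all irradiated groups together differed by a log2 fold change of -0.09 for Cox4i2 (adjusted p = 0.97) and -0.03 for Cox6b2 (adjusted p = 0.99).

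Other genes of the pathway were taken from lists. Of 36 assembly factors with other names 30 had a probe, of 8 electron carriers and shuttles 7, of 17 tricarboxylic acid cycle genes 17, of 13 regulators of mitochondrial biogenesis 13, and of 7 carriers and channels of the mitochondrial membranes 6. In limma 0 of them passed the threshold in any of the 8 comparisons. At an unadjusted p under 0.05 there were Bcs1l at 340 kBq and Coa7 at 1300 kBq among the assembly factors and Pprc1 at 9 kBq, Twnk, the mitochondrial helicase, at 88 and 340 kBq, and Esrrg at 340 kBq among the regulators. Each was higher than in the controls, as were most of all probes at this p: 841 of 979 at 9 kBq, 907 of 1020 at 88 kBq, 4019 of 4152 at 340 kBq and 1165 of 1268 at 1300 kBq (3.22%, 3.36%, 13.7% and 4.18% of the probes tested). Between tissue clusters, 15 of 17 tricarboxylic acid cycle genes had a higher median in the follicle-poor rats, with a median difference of 1.08, among them Fh (1.47), Mdh2 (1.42) and Cs (0.962), while Idh3b was lower by 1.25. All 6 membrane exchange genes were higher there, by 0.697 (Slc25a5) to 1.27 (Slc25a4, the ADP/ATP carrier of muscle and heart). The same held for 25 of 30 assembly factors (median difference 0.434) and 11 of 13 regulators (0.327), where Ppargc1b differed by 1.61, Esrra by 1.05 and Ppargc1a by -0.147. Cytochrome c (Cycs) was higher by 1.19, and the inner membrane dehydrogenases Dhodh and Gpd2 were lower by 1.93 and 1.28.

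Slide and scan day, read from the files, each held several groups. Scan day 1 held 16 arrays, 3 of them controls and 6 follicle-poor, and no array of the 88 kBq group. Scan day 2 held 20 arrays, 1 of them a control and 12 follicle-poor. Within scan day 1 the median difference of the 85 genes from the controls was -0.701 at 9 kBq, -0.194 at 170 kBq, -0.686 at 260 kBq, 0.965 at 340 kBq, -0.76 at 760 kBq, 0.0498 at 1300 kBq and 0.188 at 4700 kBq. Within scan day 2 it was 0.745, 1.23, 0.406, 0.546, 0.186, 0.942 and -0.343 in the same order and -0.0835 at 88 kBq. The sign differed between the days in 5 of 7 groups, and was positive on both at 340 and 1300 kBq. Within slides that held a control it ran from -1.25 to 1.18. These are differences of 1 to 4 rats from 1 to 3 controls, with no test.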

How the data were processed

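RNA from 36 thyroids was hybridized to 1-colour arrays, 1 per rat. The scanner output deposited by the authors holds processed signal intensity per spot, with background subtracted by Feature Extraction and no normalization between arrays. The matrix deposited by the authors holds quantile normalized intensity on a linear scale and was used as an alternative. Their comparisons were made with Nexus Expression, whose test is not given in the sources used here.

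Control spots and outlier spots (331 to 1365 per array) were left out, each array's 75th percentile (1564 to 4288, median 2780) was subtracted from its log2 processed intensity, and spots sharing a probe were averaged. Between 62.6% and 91% of probes were well above background. Accessions were named through RefSeq (GRCr8). Comparisons with the controls came from 1 limma 3.58.1 fit over 36 arrays in R 4.3.3 (package data.table, version 1.17.8), with 1 mean per group and Benjamini-Hochberg adjustment over 30367 probes; 99 probes, none of them members, lacked a value on at least 1 array. The threshold followed the study's methods. The fit was tested on simulated data. Exact and resampled permutation tests used scipy 1.17.1, numpy 2.4.6 and pandas 2.3.3 under Python 3.11.15, and figures matplotlib 3.10.9. Each rat is a separate animal, and precision is limited by how many arrays there are.

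A gene is represented by its probe with the highest mean. Named genes are the muscle-type isoforms and partners, isoforms of other tissues, core subunits, the gene with the smallest p in each direction per comparison, and the genes with the largest and smallest SD per complex. Members and lists were chosen with earlier results of these data known. Alternatives were other scalings, normexp (offset 50, on median signals), the authors' matrix, a filter on dim probes, slide, scan day or rat number as a block, 2-group fits, list means as covariates, the mean of a gene's probes, an adjusted p under 0.05, and each rat left out. Fits on follicle-rich rats, without the 4 rats low in fast muscle, and with the fast muscle mean as covariate were added after the values were seen. Results of some members and marker genes are not reported here.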

Additional observations from a re-analysis of the deposited data

Results flagged for a closer look

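In each group of 4 rats, the gap between the lowest or highest value and its neighbour was compared with the range of the group (Dixon's test) for Cox6a2, Cox8b, Cox6a1, Cox7a2, Cox8a and the median of the 85 genes. Of 54 such groups 4 held a value that stood apart, where chance gives about 1 in 20. Cox6a2 was at 1.04 in rat 3 at 88 kBq, with the next rat at 6.41, and at -1.92 in rat 3 at 760 kBq, with the next at 6.25. Both rats are among the 4 low in fast muscle genes. Cox6a1 was at 6.32 in rat 3 at 760 kBq, the same rat, with the next at 5.65, and at 5.58 in rat 4 at 260 kBq, a follicle-poor rat, with the next at 5.96.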

How the results depend on the processing

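No member passed the threshold under any alternative run, the fit with the rat number as a replicate block included, in which 0 members were called. In the reported fit the numbers were not treated as pairs. The mean correlation was -0.02 over 144 same-numbered pairs and 0.0068 over 432 pairs with another number. Of the same-numbered pairs 57 correlated above 0.1, and the count among the others is not given, so a pairing is not excluded. For the named genes, 51 values from alternatives had the opposite sign of the reported log2 fold change, none of them past the threshold. At 1300 kBq, Cox8b turned to -0.0182 with quantile normalization and -0.0196 in the authors' matrix, and at 260 kBq Cox6a2 turned to 0.00218 with median centring. With the slide as a block, Cox6c-ps1 at 88 kBq was -0.68 and Cox7c at 760 kBq -0.56, and with the scan day as a block Cox7c at 760 kBq was -0.31. With the slow muscle and follicular means as covariates, Cox6a2 was 0.87 at 260 kBq, -0.16 at 340 kBq and 0.90 at 4700 kBq, and Cox8b -0.12 at 170, 0.25 at 260, -0.22 at 340 and 0.18 at 4700 kBq. With the fast muscle and follicular means, Cox6a2 was 0.00339 at 260, -0.00162 at 340 and 0.24 at 760 kBq, Cox8b -0.18 at 170, -0.16 at 340, 0.27 at 760 and -0.27 at 1300 kBq, and Cox7a2l -0.0112 at 9 kBq. In follicle-rich rats alone, Cox6a2, Cox8b and Sdhaf2 were -0.15, -0.25 and -0.00285 at 1300 kBq. Without the 4 rats low in fast muscle, Cox6a2 and Cox8b were 0.67 and 0.77 at 9 kBq, 0.26 and 0.069 at 88 kBq, 0.31 and 0.25 at 760 kBq, and 0.38 and 0.18 at 4700 kBq. With each rat left out in turn, Cox6a2 ran from -0.92 to 0.67 at 9 kBq, -1.77 to 0.26 at 88 kBq, -0.43 to 0.37 at 260 kBq, -2.66 to 0.31 at 760 kBq and -1.25 to 0.38 at 4700 kBq. Cox8b ran from -0.91 to 0.77, -1.55 to 0.069, -0.0532 to 0.69, -0.81 to 0.35, -1.32 to 0.25, -0.0972 to 0.67 and -1.51 to 0.18 at 9, 88, 170, 260, 760, 1300 and 4700 kBq, and Cox7c from -0.31 to 0.93 at 760 kBq. Apart from the exclusions, covariates and blocks named, the cause was not tested.

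The correlations with the fast muscle mean stayed positive, from 0.771 to 0.959 for Cox6a2 and 0.599 to 0.918 for Cox8b. With the slow muscle mean, r for Cox6a2 was 0.174 with quantile normalization and in the authors' matrix, 0.212 on scan day 2, 0.931 in follicle-rich rats, and -0.182 to 0.174 with a rat left out. For Cox8b it was -0.118 on scan day 1, -0.158 in follicle-poor rats, 0.915 in follicle-rich rats, and -0.0995 to 0.222 with a rat left out.

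Counts of member probes at an unadjusted p under 0.05 in limma went from 0 to 28 at 9 kBq with the slow muscle and follicular covariates (all 28 lower, with 5.5% of all probes), to 9 with the fast muscle covariate (3.7% of all probes) and to 65 in follicle-rich rats (15.5%), where the group is 1 rat, low in fast muscle, and the median fold change of the 85 genes was -0.891. At 340 kBq the count went from 2 to 6 in the 2-group fit (9.23% of all probes), 4 in follicle-rich rats (24.9%), where the group is again 1 rat, and 8 without control rat 3 (21%), against 13.7% in the reported fit. A lone rat is assumed to vary like the rats of the other groups, so that these counts say nothing of the spread at 9 or 340 kBq. All other counts lay between 0 and 3. With 4 rats a group, even the difference of -1.85 for Cox6a2 at 760 kBq, with a standard error of 1.43, was not distinguishable from 0 (limma, adjusted p = 1).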
